A study of Mus musculus with 3 samples.

Results

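The amino acid transporter genes described here are the protein-coding genes of the SLC1, SLC3, SLC7, SLC36, SLC38 and SLC43 families in a table of read counts per gene from mouse bone marrow pre-B cells. They were chosen by symbol prefix alone, with 1 further Slc7a gene left out by the rule, which gave 42 genes of the 26286 in the table. RNA-seq had been carried out on 3 libraries, all belonging to 1 group. The animals were bitransgenic (CAG-rtTA3;TRE-GFP-shLuc.1309) and received doxycycline (Dox) for 3 days, which switched on a control shRNA together with GFP. Marrow cells of the phenotype GFP+B220+IgM–Kit–CD25+ were then sorted. All libraries therefore carry the induced control shRNA, and no library without it or of another cell stage was analysed here, so the results are levels, differences between genes within a library and the spread between libraries. The labels do not state whether the libraries came from separate animals, so p-values measure only the spread between these samples, which may be technical.

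Solute carriers of these families move amino acids across the plasma membrane or out of lysosomes. Some are uniporters, some are driven by sodium or protons, and some are obligate exchangers that release one amino acid for each taken up. The SLC7 light chains reach the cell surface only when bound to an SLC3 heavy chain, and together they form heteromeric transporters. Several of the genes are known targets of ATF4, the transcription factor that is translated when amino acids are short, and lysosomal members pass amino acid supply on to the kinase complex mTORC1. Proliferating lymphocytes depend on entry of glutamine and leucine.

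Total counts were 12418054, 12021576 and 32086649 in replicates 1, 2 and 3, and the 42 genes together took 0.268%, 0.281% and 0.263% of them. All 8 of the pre-B markers examined exceeded 1 RPKM (reads scaled to gene length and to library size) in every library, led by Cd79b at 1297 ± 62.2 RPKM and Vpreb3 at 1136 ± 94.7 RPKM (mean ± SD, n = 3, as for all means below). All 10 neutrophil markers did so too. Their summed level was 1318, 1583 and 2336 RPKM, highest in replicate 3. Most of it came from S100a9, at 568, 702 and 1052 RPKM, and S100a8, at 408, 481 and 749 RPKM. Not all members had this order: Mpo, at 4.58, 2.82 and 4.15 RPKM, and Elane, at 3.24, 2.45 and 2.74 RPKM, were highest in replicate 1. Mmp8, at 10.6, 17.1 and 17.0 RPKM, was highest in replicate 2. Monocyte markers summed to 12.9, 15.2 and 20.4 RPKM, also highest in replicate 3, with 3 of 8 at or above 1 RPKM. So were basophil and mast cell markers, which summed to 3.38, 7.06 and 23.5 RPKM, with 1 of 5 at or above 1 RPKM. Erythroid markers reached that level in 2 of 6, T and NK cell markers in 1 of 7, plasma cell markers in 1 of 4, early progenitor markers in 1 of 4 and megakaryocyte markers in 0 of 5. In such bulk samples fewer cells of a type and less RNA per cell cannot be told apart.

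Of the 42 genes, 19 stood at or above 1 RPKM in every library. That is 45.2% of the set, against 42.4% of all genes in the table. A further 12 had a count in at least 1 library but stayed below 1 RPKM, and 11 had no count at all, 26.2% of the set against 33.7% of the table. The expressed genes stood well apart from the rest, since the lowest of the 19, Slc3a1, had a mean of 2.02 RPKM and the highest of the others, Slc1a4, a mean of 0.294 RPKM. The median of all 42 was -0.68 ± 0.017 on the log2(RPKM + 0.5) scale, which falls among the genes below 1 RPKM, against -0.39 ± 0.034 for all genes of the table. Among the 31 with a count the median was 2.24 ± 0.14, against 2.57 ± 0.016 for all 17423 genes with a count. Of the 19, 11 had a mean of at least 10 RPKM.

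**Figure D1:**
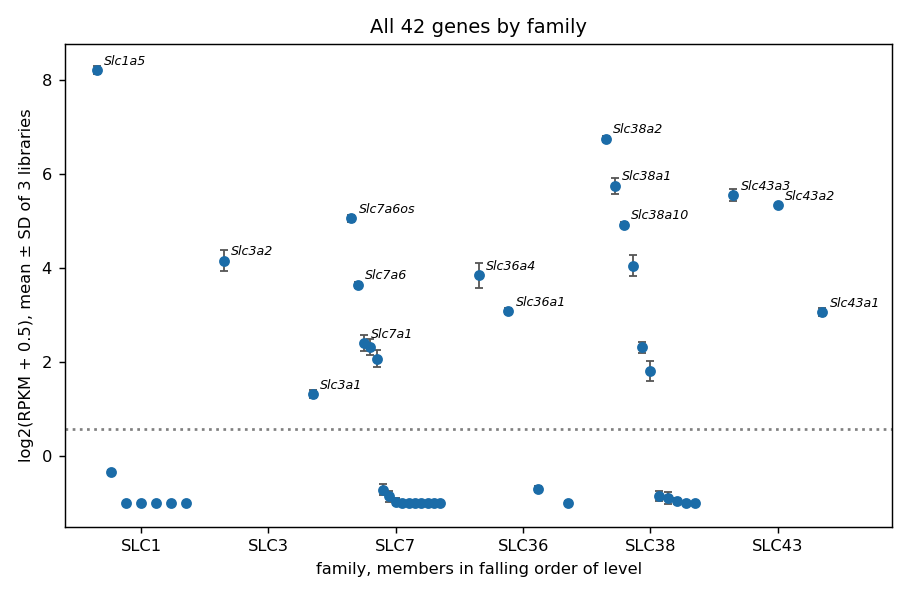
Level of each of the 42 genes as log2(RPKM + 0.5), mean and SD of 3 libraries, grouped by family on the horizontal axis in falling order; the dotted line marks 1 RPKM. Points at or just above -1 are genes with no or very few counts, and the SLC1 family holds both Slc1a5, the highest point, and 4 genes without a count.

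RNA of these genes was concentrated in a few of them. Slc1a5 alone made up 42.0 ± 1.63% of the summed RPKM of the 42 genes, the 3 highest genes 64.8 ± 0.87% and the 11 highest 94.5 ± 0.36%. By family, SLC1 took 42.1% of the sum, SLC38 30.4%, SLC43 13.4%, SLC7 8.24%, SLC36 3.13% and SLC3 2.77%. All 3 SLC43 genes and both SLC3 genes were at or above 1 RPKM, against 6 of 11 in SLC38, 2 of 4 in SLC36, 5 of 15 in SLC7 and 1 of 7 in SLC1. The largest family by number, SLC7, was thus not among the largest by level. Its values include Slc7a6os, which is no transporter and was admitted by its symbol alone. Slc7a6os was 1 of the 5 SLC7 genes at or above 1 RPKM. At 31.7, 32.3 and 35.1 RPKM in replicates 1, 2 and 3, it exceeded all other SLC7 genes together in every library. The share held by the SLC7 transporters alone was therefore well below 8.24%.

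In the SLC1 family, the neutral amino acid exchanger Slc1a5 (Entrez 20514, chromosome 7), also called ASCT2 and known as a main route of glutamine entry in dividing cells, was measured at 308, 309 and 278 RPKM in replicates 1, 2 and 3. Its mean of 298 ± 17.5 RPKM placed it at rank 172 of all genes, above 99.0% of those with a count. Replicates 1 and 2 were nearly equal and replicate 3 was lower. Its closest relative, Slc1a4 (Entrez 55963, chromosome 11), the exchanger ASCT1, had only 13, 14 and 40 counts, a mean of 0.294 ± 0.0253 RPKM. On the log2(RPKM + 0.5) scale Slc1a5 exceeded Slc1a4 by 8.56 ± 0.13, with the same sign in 3 of 3 libraries. As a ratio of counts per length over the 3 libraries, Slc1a5 was 966-fold above Slc1a4, with a 95% counting interval of 760 to 1246. The 5 glutamate transporters of the family, which clear glutamate around neurons and in kidney and gut, were near or at 0. Slc1a3 had a single count in 1 library, and Slc1a1, Slc1a2, Slc1a6 and Slc1a7 had none.

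The SLC38 family held the next highest levels. Slc38a2 (Entrez 67760, chromosome 15), the sodium-coupled system A transporter SNAT2 that is known to be induced when amino acids are short, stood at 105, 106 and 113 RPKM. Slc38a1 (Entrez 105727, chromosome 15), the related SNAT1, stood at 50.3, 61.8 and 49.3 RPKM, highest in replicate 2. Slc38a2 was the higher of the pair in every library, by a mean of 2.01-fold on the log2(RPKM + 0.5) scale. The difference Slc38a1 minus Slc38a2 was -1.01 ± 0.22 on the log2(RPKM + 0.5) scale. It rests largely on gene length, 8391 bases for Slc38a1 against 4628: as CPM, not divided by length, it was -0.15, and replicate 2 held 6214 counts of Slc38a1 against 5861 of Slc38a2. The exact two-sided sign-flip test over 3 libraries cannot give a p below 0.25, the value that this pair and the 9 other planned pairs all reached, so none of these differences could pass 0.05.

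The system A genes lie side by side on chromosome 15 in the order Slc38a1, Slc38a2 and Slc38a4, and only the last of them was without a count. Slc38a4, which is known from liver and placenta, had 0 counts in all 3 libraries, whose floor of 3 counts in 1 library lies at or below 0.0637 RPKM. With that floor of 3 counts taken over the group, Slc38a2 was at least 8154-fold higher per length. The 250 bases before the annotated starts of these neighbours are shown, for the expressed Slc38a2 and the uncounted Slc38a4, because they differ in CG content. CG pairs are in capitals. The letters are from RefSeq on GRCm38.p6, used for sequence only since the counts were made on another build. Slc38a2 holds 30 CG pairs in this window and the most upstream of 3 Slc38a4 starts holds 3, with 5 at each of the other 2 starts.
Slc38a2 promoter, chr15:96699729-96699978, minus strand: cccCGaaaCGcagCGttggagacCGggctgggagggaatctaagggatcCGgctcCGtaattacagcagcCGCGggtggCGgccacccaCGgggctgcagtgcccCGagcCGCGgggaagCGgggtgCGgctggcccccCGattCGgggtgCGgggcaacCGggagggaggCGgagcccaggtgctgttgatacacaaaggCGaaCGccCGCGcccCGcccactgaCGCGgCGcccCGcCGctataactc
Slc38a4 promoter, chr15:97055957-97056206, minus strand: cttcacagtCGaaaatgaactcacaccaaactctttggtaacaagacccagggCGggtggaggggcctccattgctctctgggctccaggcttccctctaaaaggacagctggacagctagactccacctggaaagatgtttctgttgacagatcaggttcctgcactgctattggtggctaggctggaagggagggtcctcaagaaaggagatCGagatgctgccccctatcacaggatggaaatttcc

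Promoter windows were given for 31 of the 42 genes, with none for Slc1a5, Slc38a1, Slc43a3 or Slc7a5. The 15 at or above 1 RPKM held a median of 21 CG pairs in 250 bases (range 6 to 38), counted at the start with the most, and the 16 below that level a median of 7.5 (range 1 to 27). Over all protein-coding genes of the count table the medians were 17.0 for those with a mean of at least 1 RPKM and 4.0 for the rest. The transporter genes on either side of 1 RPKM overlapped in range.

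Other SLC38 genes were lower. Slc38a10 (Entrez 72055, chromosome 11), a widely expressed member, stood at 30.6, 30.6 and 28.9 RPKM, within a narrow range. Slc38a9 (Entrez 268706, chromosome 13), the lysosomal protein that reports arginine to the Rag GTPases and so to mTORC1, stood at 15.4, 19.4 and 14.2 RPKM, highest in replicate 2. Slc38a7 (Entrez 234595, chromosome 8), a lysosomal exporter of glutamine and asparagine, had a mean of 4.50 ± 0.400 RPKM, and Slc38a9 exceeded it by 1.74 ± 0.18 on the log2(RPKM + 0.5) scale, or 3.34-fold, in 3 of 3 libraries. Slc38a6 (Entrez 625098, chromosome 12) had a mean of 3.05 ± 0.509 RPKM, but its level is uncertain. Its gene overlaps Trmt5, which stood at 8.62 ± 1.26 RPKM. Of the 31-base words of Slc38a6, 40.7% occur in transcripts of other genes, with the largest part, 31.3%, in those of Noct. Slc38a5, Slc38a8 and Slc38a11 had at most 3 counts in any library, and Slc38a3, like Slc38a4, had none.

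The SLC36 family includes proton-coupled carriers. Slc36a1 (Entrez 215335, chromosome 11), which exports small amino acids from lysosomes, stood at a mean of 8.03 ± 0.422 RPKM, and Slc36a4 (Entrez 234967, chromosome 9), which carries proline and tryptophan, stood at 12.5, 17.4 and 12.5 RPKM, with replicate 2 above the other libraries. Per length Slc36a4 was the higher in every library, by a mean of 1.69-fold, and Slc36a1 minus Slc36a4 was -0.76 ± 0.28 on the log2(RPKM + 0.5) scale. Without division by gene length the order turned, to 0.64 in favour of Slc36a1, since Slc36a1, at 5274 bases against 1937, is the longer gene and had 2353 counts over the 3 libraries against 1481. Slc36a2, the next gene to Slc36a1 on chromosome 11, had 4, 4 and 7 counts, and Slc36a3 beyond it had 1 count in 1 library.

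The 3 SLC43 genes were all expressed. Slc43a3 (Entrez 58207, chromosome 2), which carries purine nucleobases rather than amino acids despite its family name, stood at 42.3, 49.6 and 48.4 RPKM, lowest in replicate 1. Slc43a2 (Entrez 215113, chromosome 11), the leucine and phenylalanine uniporter LAT4, stood at 40.3, 39.1 and 40.8 RPKM, with the lowest coefficient of variation of the 19. Its values lay below those of Slc43a3 in every library. Those of Slc43a3 in turn lay below those of Slc38a1 in every library, though closely in replicate 3, at 48.4 against 49.3 RPKM. Slc43a1 (Entrez 72401, chromosome 2), the related uniporter LAT3, had a mean of 7.91 ± 0.520 RPKM. In counts per length over the 3 libraries it was 0.192 of Slc43a2, with a 95% counting interval of 0.181 to 0.204. With the pseudocount of 0.5, which draws the values together, Slc43a2 exceeded it by a mean of 4.83-fold. The difference Slc43a1 minus Slc43a2 was -2.27 ± 0.10 on the log2(RPKM + 0.5) scale.

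The E-box, CACGTG, is the core of sites bound by the MYC and TFEB families of transcription factors, and reads the same on both strands. Among the expressed genes with a promoter window it occurred in 3 of 15, namely in the lysosomal exporters Slc36a1 and Slc38a7 and in Slc43a1. The window of Slc38a9, also lysosomal and expressed, did not hold the E-box. Below 1 RPKM the E-box occurred in 4 of the 16, namely Slc1a6, Slc1a7, Slc38a5 and Slc7a14. It was held by 6.86% of all genes with a promoter window. Among protein-coding genes the share was 10.3% with a mean of at least 1 RPKM and 5.46% below it. The match is a description of letters, and binding was not measured. The windows of the 3 expressed genes are shown with the E-box in capitals, which starts 31 bases before the start of Slc36a1, 34 before that of Slc38a7 and 64 before that of Slc43a1.
Slc36a1 promoter, chr11:55204090-55204339, plus strand: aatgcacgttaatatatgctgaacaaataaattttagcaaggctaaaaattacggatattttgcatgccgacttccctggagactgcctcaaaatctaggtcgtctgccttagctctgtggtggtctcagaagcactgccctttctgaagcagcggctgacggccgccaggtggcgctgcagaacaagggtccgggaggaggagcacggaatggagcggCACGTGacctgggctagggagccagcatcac
Slc38a7 promoter, chr8:95853492-95853741, minus strand: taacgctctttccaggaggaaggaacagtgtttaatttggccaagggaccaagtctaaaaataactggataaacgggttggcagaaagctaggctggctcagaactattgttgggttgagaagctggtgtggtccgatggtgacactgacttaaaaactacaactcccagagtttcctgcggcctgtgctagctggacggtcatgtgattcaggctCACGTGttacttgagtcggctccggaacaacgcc
Slc43a1 promoter, chr2:84840073-84840322, plus strand: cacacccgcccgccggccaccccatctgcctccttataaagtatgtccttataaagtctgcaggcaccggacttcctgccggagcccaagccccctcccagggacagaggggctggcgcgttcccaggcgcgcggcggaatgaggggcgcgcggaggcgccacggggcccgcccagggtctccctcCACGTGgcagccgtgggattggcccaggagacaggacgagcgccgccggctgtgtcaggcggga

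**Figure D2:**
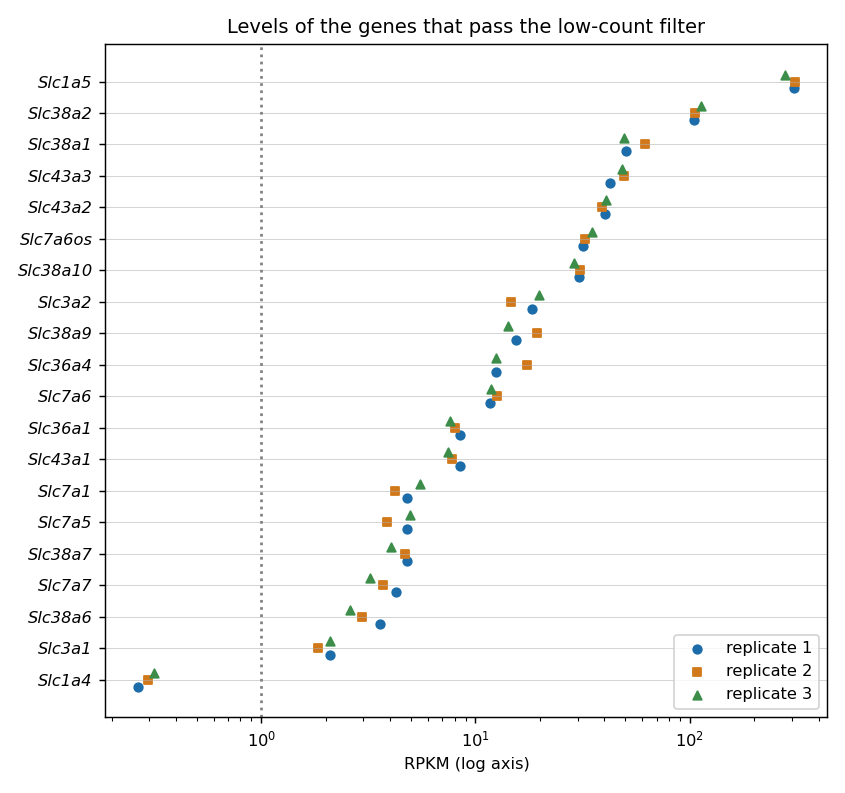
RPKM (log axis) of the 20 genes that pass the low-count filter, with 1 symbol for each library and a dotted line at 1 RPKM. The 3 libraries stand close together for each gene compared with the range between genes, from 0.294 RPKM for Slc1a4 to 298 RPKM for Slc1a5.

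Both heavy chains were measured. Slc3a2 (Entrez 17254, chromosome 19), the CD98 heavy chain that carries light chains to the cell surface and also binds integrins, stood at 18.3, 14.6 and 19.8 RPKM, lowest in replicate 2. Slc3a1 (Entrez 20532, chromosome 17), the heavy chain rBAT of kidney and gut, had a mean of 2.02 ± 0.146 RPKM. Slc3a2 exceeded it by 2.84 ± 0.14 on the log2(RPKM + 0.5) scale, or 7.15-fold with the pseudocount. In counts per length over the 3 libraries Slc3a2 was 8.97-fold higher, with a 95% counting interval of 7.92 to 10.2. The Slc3a1 gene overlaps Prepl, at 8.12 ± 0.891 RPKM, and 25.5% of its 31-base words occur in Prepl transcripts, so without a stated strand setting the level of Slc3a1 is uncertain. Its partner light chain Slc7a9 had 1 count in all and Slc7a13 had none, against 267 counts for Slc3a1.

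Of the 9 light chains in the set, 3 were at or above 1 RPKM and 4 had no count. Slc7a6 (Entrez 330836, chromosome 8), the exchanger y+LAT2, which releases arginine in return for glutamine or leucine with sodium, was the highest at 11.7, 12.7 and 11.8 RPKM. Slc7a5 (Entrez 20539, chromosome 8), the exchanger LAT1 that brings in leucine and other large neutral amino acids, stood at 4.77, 3.87 and 4.96 RPKM, lowest in replicate 2. Slc7a7 (Entrez 20540, chromosome 14), the related y+LAT1, had a mean of 3.73 ± 0.529 RPKM, and 5.91% of its words are shared with the overlapping gene Oxa1l, at 33.1 ± 0.796 RPKM. Slc7a6 exceeded Slc7a7 by 1.58 ± 0.19 on that log2 scale, or 2.98-fold. Slc7a8, which encodes LAT2, had 3, 6 and 21 counts. Slc7a5 exceeded Slc7a8 by 35.7-fold in counts per length over the 3 libraries, with a 95% counting interval of 24.8 to 53.2. No count was found for Slc7a10, Slc7a12, Slc7a13 or Slc7a15.

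The measured light chains that pair with Slc3a2 summed to 20.8, 20.4 and 20.1 RPKM, against the Slc3a2 values above, and the ratio of this sum to the heavy chain was 1.14, 1.39 and 1.02 (mean 1.18 ± 0.19). The sum barely moved between libraries, and the higher ratio of replicate 2 went with the lower Slc3a2 there. Slc7a6 made up 59.0 ± 2.97% of the sum, Slc7a5 22.2 ± 2.89%, Slc7a7 18.2 ± 2.26% and Slc7a8 0.567 ± 0.261%. The further Slc7a gene that the rule leaves out is not in this sum. Slc3a2 exceeded Slc7a5 alone by 1.84 ± 0.05 on the log2(RPKM + 0.5) scale, or 3.58-fold, and this difference had the smallest SD of the 10 pairs. Both genes were lowest in replicate 2 and highest in replicate 3, as were Slc3a1, Slc43a2 and Slc7a1. For Slc3a1 and Slc43a2 the differences lay within counting noise in the chi-square test described below (adjusted p 0.760 and 0.314). Of the 20 genes tested, 5 (25.0%) were lowest in replicate 2, against 36.3% of all genes tested.

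**Figure D3:**
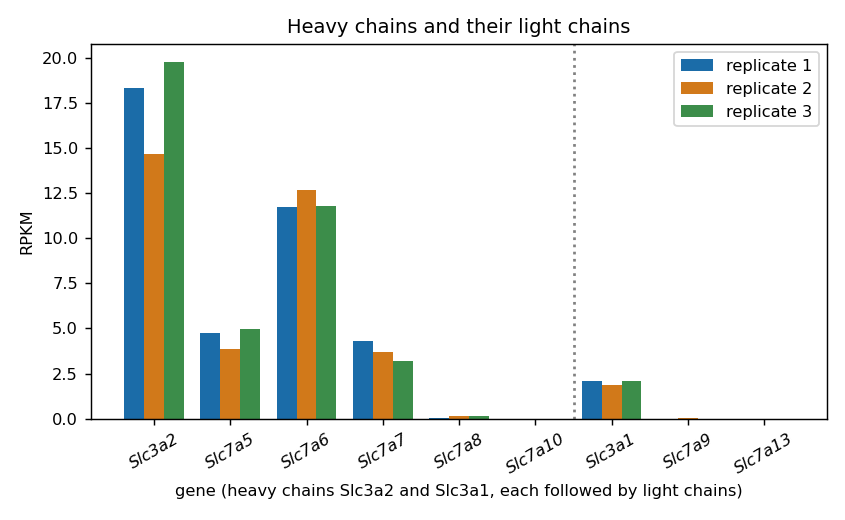
RPKM of the heavy chains Slc3a2 and Slc3a1, each followed by its light chains, with 1 bar for each library. Slc7a6 has the highest bars among the light chains, between 11.7 and 12.7 RPKM, and the light chains of Slc3a1 have none that can be seen.

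The C/EBP-ATF response element, through which ATF4 acts, has the core TGATGNAA, searched on both strands. Among the 31 genes with a promoter window it occurred only in Slc7a7, at 2 of its 5 annotated starts. The core was held at some start by 3.91% of all genes with a promoter window, and by 2.29% of protein-coding genes with a mean of at least 1 RPKM. The element known in Slc38a2 lies in an intron, outside the 250 bases searched, so no match says only that these letters are not in this window. The 2 windows of Slc7a7 are shown with the core in capitals, which starts 243 bases before the start in the first of them and 141 in the other.
Slc7a7 promoter, chr14:54417703-54417952, minus strand: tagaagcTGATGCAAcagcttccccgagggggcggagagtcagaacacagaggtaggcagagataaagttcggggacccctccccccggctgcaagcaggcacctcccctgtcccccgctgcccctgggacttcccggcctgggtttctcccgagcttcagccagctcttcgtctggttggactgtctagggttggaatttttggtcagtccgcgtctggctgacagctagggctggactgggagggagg
Slc7a7 promoter, chr14:54417945-54418194, minus strand: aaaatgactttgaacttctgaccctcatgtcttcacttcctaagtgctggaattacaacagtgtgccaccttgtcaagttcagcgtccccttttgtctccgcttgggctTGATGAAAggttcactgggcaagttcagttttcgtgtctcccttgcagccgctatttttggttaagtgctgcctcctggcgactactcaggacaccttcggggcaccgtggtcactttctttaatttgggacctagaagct

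The cationic amino acid transporter subfamily of SLC7 works without a heavy chain. Slc7a1 (Entrez 11987, chromosome 5), the arginine and lysine carrier CAT1, stood at 4.77, 4.23 and 5.51 RPKM. It was lowest in replicate 2 and highest in replicate 3. The other 4 genes were near or at 0, with 1 count in all for Slc7a2 and for Slc7a4, at most 3 in any library for Slc7a3 and none for Slc7a14. Slc7a1 exceeded Slc7a2 by 3.40 ± 0.17 on the log2(RPKM + 0.5) scale, a value that depends on the pseudocount since Slc7a2 was at the floor. Slc7a6os (Entrez 66432, chromosome 8), admitted by its symbol alone, encodes a nuclear import factor of RNA polymerase II and is no transporter. It stood at 31.7, 32.3 and 35.1 RPKM, above its neighbour Slc7a6 in every library.

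The 9 genes with at most 3 counts in each library and the 11 with none mark the limit of what this depth can show. For the 11, a floor of 3 counts corresponds to between 0.0207 and 0.145 RPKM in replicate 2, the library with the lowest total, depending on gene length. In replicate 3, the deepest, it corresponds to between 0.00773 and 0.0539 RPKM. Levels below the floor of replicate 3 could not be told from absence. These limits cover counting error only.

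Differences between the libraries were then set against counting noise. Of the 20 genes that passed the low-count filter, 9 (45.0%) differed between libraries by more than Poisson counts allow, against 54.6% of the 12147 genes tested. The test was a chi-square test with Benjamini-Hochberg adjustment over all genes tested. The highest genes could be resolved at small differences: the adjusted p was 1.3e-25 for Slc1a5, whose highest and lowest libraries differed by only 1.11-fold. For Slc38a1, higher in replicate 2, it was 1.3e-48. For Slc38a9 it was 3.6e-28, for Slc38a2 2.4e-08, for Slc3a2 5.5e-08, for Slc36a4 5.2e-07, for Slc43a3 5.1e-05, for Slc7a1 5.3e-05 and for Slc7a5 0.0378. Slc43a2, Slc38a10, Slc7a6 and Slc7a6os did not pass, with adjusted p of 0.314, 0.0547, 0.382 and 0.0749.

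Most of these differences rested on 1 library. Without replicate 3 the adjusted p rose to 0.916 for Slc1a5, 0.832 for Slc38a2 and 0.230 for Slc7a1. Without replicate 2 it rose to 0.361 for Slc38a1, 0.200 for Slc3a2 and 0.991 for Slc36a4, and without replicate 1 to 0.615 for Slc43a3. Slc7a5 lost its call without replicate 2 (0.754) or replicate 3 (0.138) and when the counts of replicate 3 were thinned to the lowest depth (0.203). Slc38a9 passed whichever library was left out, with adjusted p up to 0.016. No library held the highest value of most genes: of the 20 genes, 5, 7 and 8 were highest in replicates 1, 2 and 3, against 28.4%, 36.5% and 35.1% of all genes tested, and 6, 5 and 9 were lowest there, against 27.6%, 36.3% and 36.1%.

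**Figure D4:**
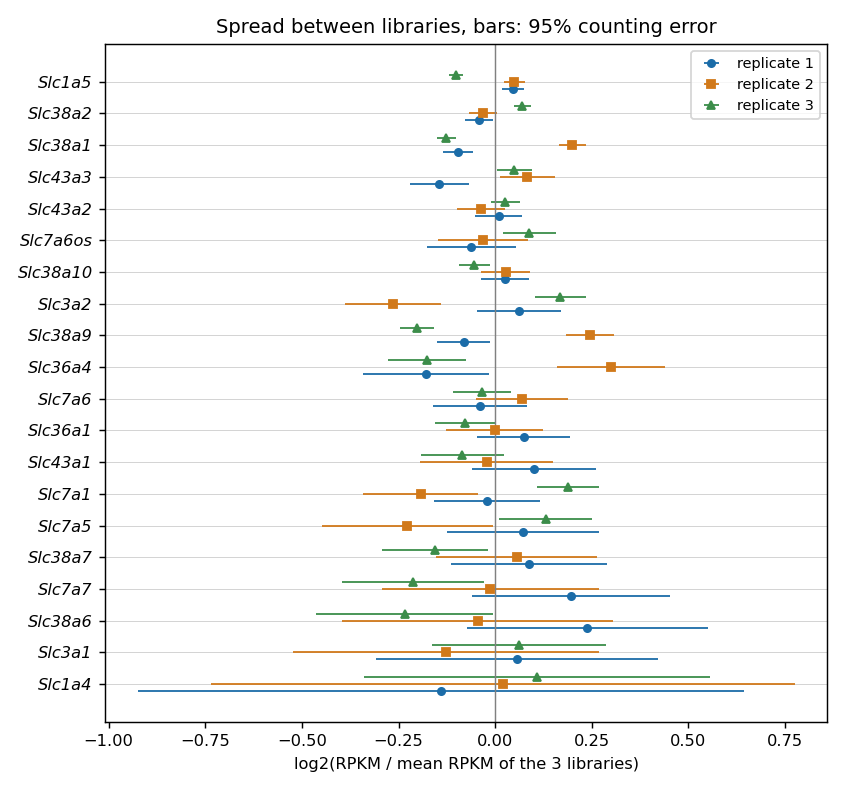
Level of each of the 20 genes in each library relative to its mean over the 3 libraries, on a log2 scale, with bars for the 95% counting error of each value. Slc1a5 is low in replicate 3, Slc38a1, Slc38a9 and Slc36a4 are high in replicate 2, and the bars of Slc1a4, with 13 to 40 counts, are the widest.

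Coefficients of variation of the 19 ran from 2.24% for Slc43a2 to 20.0% for Slc36a4 with a median of 8.33%. Over the 20 genes tested the median was 8.47%, against 9.76% for all genes tested. In the intercept-only quasi-likelihood fit of edgeR, 0 of the 20 genes were more variable than genes of like abundance, at an adjusted or an unadjusted p of 0.05, against 2 of all genes tested (0.0165%) and 644 at the unadjusted p. With so few calls in all, the count of 0 says little about the 20 genes.

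The labels give 1 difference between the libraries, the version of the base-calling software CASAVA, which was 1.8.0 for replicate 3 and 1.8.2 for the others. Replicate 3 also had the highest total and the highest sums of neutrophil, monocyte, and basophil and mast cell markers. Version, depth and library therefore cannot be told apart. The part of the RNA of such cells in any difference was not tested. The comparison of replicate 3 with the others has 1 library on one side, so a gene not called there may still differ. In edgeR's quasi-likelihood test 0 of the 20 genes differed between replicate 3 and the others, at an adjusted or an unadjusted p of 0.05, and DESeq2 called 0 too. Of all genes 9 were called (0.0741%), 7 of them higher (0.0576%) and 2 lower (0.0165%), with 1169 at the unadjusted p. The log2 fold changes were 0.29 ± 0.15 (SE) for Slc7a1, 0.26 ± 0.16 for Slc3a2 and 0.20 ± 0.20 for Slc7a5, with adjusted p of 0.595, 0.651 and 0.799 in that test. They were -0.29 ± 0.15 for Slc38a9 and -0.26 ± 0.22 for Slc36a4, with adjusted p of 0.595 and 0.759. These values depended on which library replicate 3 was set against. Against replicate 1 or replicate 2 alone, Slc7a1 stood at 0.21 and 0.38, Slc3a2 at 0.11 and 0.44 and Slc7a5 at 0.056 and 0.36. Slc38a9 stood at -0.12 and -0.44, and Slc36a4 at 1.3e-04 and -0.47.

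Other genes of amino acid supply were read from 4 lists. The Poisson counts given for each list stand against the 54.6% of all genes tested that passed that test. The share of all genes called in the CASAVA comparison is given above. In the amino acid response list, the ATF4 program, 14 of 22 genes were at or above 1 RPKM in every library and 1 had no count. Its median level, as log2(RPKM + 0.5), was 3.31 ± 0.15. Its highest members were Atf4 itself at 132 ± 23.0 RPKM, the serine synthesis enzyme Psat1 at 43.1 ± 6.82 RPKM, the translation repressor Eif4ebp1 at 31.2 ± 2.16 RPKM and the mTORC1 inhibitor Ddit4 at 27.9, 22.4 and 34.4 RPKM. The lowest were Nupr1 at 0.0594 ± 0.0649 RPKM and Vldlr with no count. Of 14 tested, 9 passed the Poisson test and 1 was called in the CASAVA comparison. That gene was Ppp1r15a, a phosphatase subunit that restores translation after stress, at 8.59, 7.90 and 21.1 RPKM, with a log2 fold change of 1.36 ± 0.15 and an adjusted p of 0.0448 by edgeR. The call ended over all genes with a count (adjusted p 0.305) and with replicate 3 thinned (0.0662), and held without scaling (0.0118) and in DESeq2 (2.8e-04). One side of this comparison is a single library. Of the 14 tested, 10 were highest in replicate 3, against 35.1% of all genes tested, and 2 each in replicates 1 and 2. Among the 10 were Atf4, Psat1 and Ddit4, which did not pass the CASAVA comparison. Lowest were 1, 10 and 3 genes in replicates 1, 2 and 3, against 27.6%, 36.3% and 36.1% of all genes tested. Those lowest in replicate 3 were Phgdh, Aldh18a1 and Eif2ak4. This tally was made after the values were seen. Asns, the asparagine synthetase and a textbook ATF4 target, had only 5, 6 and 14 counts, or 0.231 ± 0.0259 RPKM. Asns was singled out after its values were seen.

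In the list of amino acid metabolism, 22 of 35 genes were at or above 1 RPKM and 2 had no count, with a median of 2.56 ± 0.13. The highest were glutamine synthetase Glul at 70.8 ± 11.4 RPKM, the S-adenosylmethionine synthetase Mat2a at 67.8 ± 2.15 RPKM, the branched-chain ketoacid dehydrogenase subunit Bckdha at 54.0 ± 4.92 RPKM and Psat1, which both lists hold. The tryptophan-degrading Ido1 and the transsulfuration enzyme Cbs had no count. Of 25 tested, 9 passed the Poisson test and 0 the CASAVA comparison.

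The amino acid sensing list, which holds the sestrins, GATOR complexes, Rag GTPases and Ragulator upstream of mTORC1, was the most fully expressed, with 26 of 29 genes at or above 1 RPKM and none without a count. Its median was 4.01 ± 0.21. Sec13, which is shared with the nuclear pore and the secretory coat, led at 67.2 ± 2.95 RPKM, followed by the Ragulator subunits Lamtor2 at 44.9 ± 5.92 RPKM and Lamtor5 at 41.7 ± 1.55 RPKM and the GTPase Rragc at 33.8 ± 2.27 RPKM. The lowest were the arginine sensor Castor1 at 0.208 ± 0.00743 RPKM and Fnip2 at 0.101 ± 0.0586 RPKM, while the other arginine sensor described above, Slc38a9, stood at 16.3 ± 2.69 RPKM. Of 27 tested, 14 passed the Poisson test and 0 the CASAVA comparison.

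Of 32 amino acid and peptide transporters of other families, 15 were at or above 1 RPKM and 8 had no count, with a median of 0.36 ± 0.18, above the -0.68 of the 42 genes. Their summed level was lower, at 148 ± 7.30 RPKM against 709.6 ± 19.7 RPKM. The lysosomal histidine and peptide carrier Slc15a4 led at 31.7 ± 4.71 RPKM, then the peptide carrier Slc15a2 at 18.1 ± 3.40 RPKM, the taurine transporter Slc6a6 at 14.7 ± 1.63 RPKM and the mitochondrial glycine carrier Slc25a38 at 13.0 ± 1.42 RPKM. Slc15a4 stood below Slc1a5, Slc38a2, Slc38a1, Slc43a3 and Slc43a2 in every library. Of 16 tested, 6 passed the Poisson test and 0 the CASAVA comparison.

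**Figure D5:**
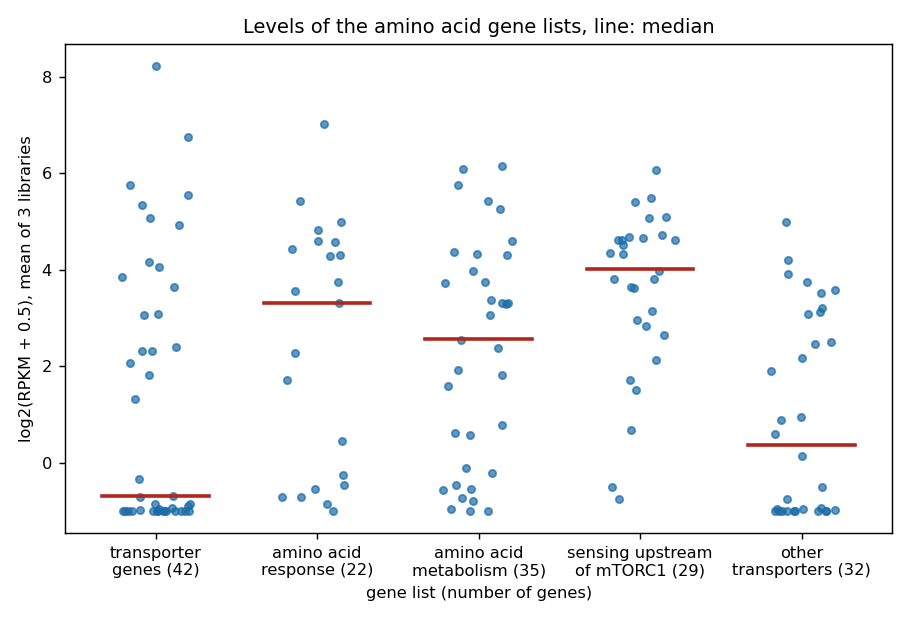
Level of each gene as log2(RPKM + 0.5), mean of 3 libraries, for the 42 transporter genes and the 4 further lists, with a red line at each median. The transporter genes fall into an expressed group and a group near -1, while nearly all genes of the sensing list lie above the level of 1 RPKM.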

How the data were processed

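RNA-seq libraries of sorted pre-B cells were used, 3 in number and all of 1 group. The authors deposited raw read counts per Entrez gene with a gene length in bases. They were made with CASAVA and featureCounts on mm9, per the submitters' processing notes, and the labels give CASAVA 1.8.0 for replicate 3, with 1.8.2 for the others. For the aligner, annotation, strand setting and treatment of reads that match several genes nothing is given in the sources, so counts of overlapping genes are uncertain. Depth was between 12021576 and 32086649 counts, so replicate 3 has the least counting error.

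Symbols were matched by Entrez identifier to RefSeq on GRCm38.p6 (24176 of 26286 matched). RPKM was computed from the deposited counts and lengths with TMM-scaled totals (edgeR 4.0.16, limma 3.58.1, R 4.3.3). Tests used genes that passed filterByExpr (minimum count 10, minimum total 15; 12147 genes), with Benjamini-Hochberg adjustment and a threshold of 0.05. They were a chi-square test against Poisson counts, an F test of gene-wise quasi-dispersion (intercept-only fit), and glmQLFTest for replicate 3 against replicates 1 and 2. DESeq2 1.42.0 was an alternative to the last. Gene pairs were compared within libraries by an exact sign-flip test. Alternatives were other scalings, pseudocounts, minimum levels, TPM or CPM, no filter, a robust fit, thinning of replicate 3 and leaving out each replicate. The tests were tried on simulated data.

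Promoter letters are from RefSeq (250 bases before each start) and words of 31 bases shared between transcripts from GENCODE M21. The genes, lists, pairs and the rule for naming genes were chosen with earlier results of these data known. Named with every library's value are genes with a mean of at least 10 RPKM or past a test, with mean and SD the others at or above 1 RPKM, and of each list the 4 highest and 2 lowest. Plots were made in Python 3.11.15 with matplotlib 3.10.9.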

Additional observations from a re-analysis of the deposited data

How the results depend on the processing

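With 1 group and 3 libraries there is no contrast of conditions, the exact test of a pair cannot pass 0.05, and the depth does not resolve levels under about 3 counts. No paired analysis was possible because there is only 1 group. The number of transporter genes at or above 1 RPKM stayed within 1.5 times under every alternative run. The median of -0.68 falls among genes with few counts and moved to -2.17 with a pseudocount of 0.1, 0.17 with 1, 3.71 over the genes that pass the filter and -0.73 without Slc7a6os. The Poisson test called between 3145 and 5590 genes, and between 5 and 8 transporter genes, when 1 library was left out. The variability test called 47 genes without the filter, 0 in a robust fit (604 at an unadjusted p of 0.05 in edgeR) and between 2 and 44 with 1 library left out, with 0 transporter genes in each. The CASAVA comparison called 0 genes without the filter (1224 unadjusted), 0 with replicate 3 thinned (1094 unadjusted), 23 without scaling (19 higher, 4 lower) and 36 in DESeq2 (21 higher, 15 lower), against 9 (7 higher, 2 lower) in edgeR's main test. The cause was not tested. Leaving out replicate 1 or 2 there leaves 1 library against 1 and gives no test. The difference Slc36a1 minus Slc36a4 turned to 0.64 on CPM and Slc38a1 minus Slc38a2 shrank to -0.15, and the log2 fold change of Slc36a4 to 1.3e-04 without replicate 2, against -0.47 without replicate 1. Of the single-gene values, 95 levels stayed within 1 SD and 19 moved, all of these on the TPM scale. TPM is another unit, so the 19 say nothing of stability. Leaving out 1 of 3 libraries cannot shift a mean by 1 SD, and the other scalings hardly differed. The tally of levels is therefore no test of how firm they are. Of the Poisson calls 53 kept their side and 10 did not, and 29 of 30 fold changes of transporter genes kept their sign.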
